A study of Mus musculus with 7 samples.

Results

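The imprinted genes of mouse haematopoietic stem cells (HSCs) were examined in bulk RNA sequencing of 3 libraries of old HSCs and 4 libraries of young HSCs. The members came from a list of established mouse imprinted genes, without Cdkn1c, and were found by symbol in the deposited count table. Of 42 entries, 41 were gene symbols and all 41 had a row among the 24015 genes of the table, while the entry Cd81-free is not a gene symbol and had none. By the allele known from general knowledge to be active, 23 members are paternally expressed and 18 maternally expressed. The table does not separate the parental alleles, so every value is the sum of both and no test of imprinting was possible. Of the 41 genes, 22 had enough counts to be tested, against 11506 in the whole table.

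Old HSCs and young HSCs both came from bone marrow of C57BL/6 mice and were sorted as cells with the phenotype LSKCD150+CD48-, which means lineage-negative, Sca-1+ and c-Kit+ cells that carry CD150 and lack CD48. No treatment, transgene or gene deletion is labelled in either group, and the labels give no ages. The labels do not tie libraries to single mice or to pools, so p-values measure the spread between these libraries, part of which may be technical. The study set old HSCs against young ones to find transcriptional changes of ageing. Levels are given as CPM, the usual measure of counts relative to the library total, after TMM scaling (trimmed mean of M values). In bulk RNA, fewer cells that express a gene and less RNA per cell cannot be told apart.

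Genomic imprinting is the expression of a gene from the copy of only the mother or only the father, set by DNA methylation of control regions in the germ line. Many imprinted genes regulate fetal growth, with paternally expressed genes such as Igf2 tending to promote it and maternally expressed genes such as Igf2r, H19 and Grb10 tending to restrain it. In the mouse, several members, among them Ndn, H19, Igf2 and the Dlk1-Meg3 region, have been tied to the dormancy or maintenance of HSCs. Imprinted genes lie in clusters, and a cluster often holds genes of both kinds and a long non-coding RNA.

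The start sites of 4 members are shown because Ndn had the clearest difference between the age groups, Copg2 had the largest difference in the other direction among members with at least 10 CPM, Mest overlaps Copg2 and had next to no counts, and Kcnq1ot1 is the silencing RNA of a cluster. Each window runs from 250 bases before to 50 bases after a RefSeq start of build GRCm38.p6, read 5′ to 3′ on the strand of the gene, with every CpG, the dinucleotide that carries imprint methylation, in capitals. The windows are Ndn at chr7:62348027-62348326 on the + strand, Kcnq1ot1 at chr7:143296498-143296797 on the - strand, Copg2 at chr6:30896745-30897044 on the - strand and Mest at chr6:30737800-30738099 on the + strand. Mest has 3 windows in the table. The first by position was taken from the pair that shared the highest CpG count.
Ndn: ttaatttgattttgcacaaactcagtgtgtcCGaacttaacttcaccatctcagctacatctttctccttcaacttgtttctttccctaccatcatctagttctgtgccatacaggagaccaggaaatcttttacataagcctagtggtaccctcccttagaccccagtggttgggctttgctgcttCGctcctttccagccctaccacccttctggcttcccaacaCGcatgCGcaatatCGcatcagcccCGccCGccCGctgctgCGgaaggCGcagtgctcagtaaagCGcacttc
Kcnq1ot1: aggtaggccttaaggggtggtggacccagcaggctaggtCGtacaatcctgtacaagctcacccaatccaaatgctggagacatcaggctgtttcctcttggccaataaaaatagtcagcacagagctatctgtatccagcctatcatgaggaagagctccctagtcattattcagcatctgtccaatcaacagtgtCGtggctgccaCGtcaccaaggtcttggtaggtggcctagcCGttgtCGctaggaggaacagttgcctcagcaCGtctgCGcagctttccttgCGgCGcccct
Copg2: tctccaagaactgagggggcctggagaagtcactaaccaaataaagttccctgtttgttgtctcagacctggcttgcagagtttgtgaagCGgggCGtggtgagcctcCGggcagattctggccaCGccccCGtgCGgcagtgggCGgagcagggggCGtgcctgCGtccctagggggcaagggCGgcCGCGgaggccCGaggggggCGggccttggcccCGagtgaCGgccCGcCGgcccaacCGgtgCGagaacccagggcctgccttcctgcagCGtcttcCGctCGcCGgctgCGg
Mest: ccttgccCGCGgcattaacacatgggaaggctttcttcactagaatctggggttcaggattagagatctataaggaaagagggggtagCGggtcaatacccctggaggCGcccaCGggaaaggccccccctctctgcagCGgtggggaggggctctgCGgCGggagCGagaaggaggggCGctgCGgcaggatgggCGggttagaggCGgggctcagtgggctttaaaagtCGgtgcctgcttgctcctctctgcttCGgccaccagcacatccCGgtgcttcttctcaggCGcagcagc

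The windows held 11 CpG for Ndn, 9 for Kcnq1ot1, 25 for Copg2 and 17 for Mest, against a median of 7 over all 32851 windows of the RefSeq table. The table held 51 windows for 34 of the 41 members, with a median of 15 CpG. The letters TGCCGC, searched on both strands as the sequence that the imprint-maintaining protein ZFP57 binds when methylated, were found in 14 of the 51 member windows (27.5%) and in 11.6% of all windows. There were 2 matches in the Mest window, 1 in the Copg2 window and none in the windows of Ndn and Kcnq1ot1. The letters TGCCGC themselves hold a CpG, and the part of CpG content in these shares was not tested. These are descriptions of sequence, and no methylation or binding was measured.

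The libraries held 22203806 to 32401925 counts, and a level of 0 in a library allowed up to 0.0929 to 0.137 CPM, the worth of 3 counts, for counting error only. Young 1 stood apart on the first principal component of all tested genes (score 220.9, against -90.4 to 53.4 in the 6 other libraries) and young 2 on the second (196.9, against -80.2 to 24.3), so values without each are given where a result rests on them. Every pair of libraries differed by more than sampling noise. Of 10 markers listed to check the HSC gate, 1 passed, Procr, with 332 ± 47.9 CPM in old HSCs and 49.7 ± 11.7 CPM in young HSCs (SD), 7 had an unadjusted p under 0.05, and 5 had a positive log2 fold change. Cd34 averaged 108.7 ± 25.0 CPM in old HSCs and 308 ± 70.6 CPM in young HSCs (adjusted p = 0.0819, edgeR). Cd48, the surface protein the sort selected against, and Flt3, a marker of multipotent progenitors, had no count in any old library, against 1.87 to 24.5 CPM of Cd48 and 0 to 36.2 CPM of Flt3 in young HSCs. Cd48 and Flt3 did not pass (adjusted p = 0.159 and 0.297, edgeR), and Flt3 was also 0 in young 1. Ly6a, the gene of Sca-1, averaged 538 ± 395 CPM in old HSCs and 167 ± 67.3 CPM in young HSCs (adjusted p = 0.225). Slamf1, the gene of CD150, averaged 177 ± 90.7 CPM and 74.8 ± 17.6 CPM (adjusted p = 0.251). Mecom averaged 134.6 ± 23.2 CPM and 66.2 ± 29.5 CPM (adjusted p = 0.397). The part of these markers in the values of Ndn, Copg2 and the genes that act on imprints was not tested. Markers of stroma, bone and endothelium, tissues in which H19, Igf2 and Dlk1 are known to be active, summed to 41.7 to 130 CPM in old HSCs and 50.3 to 139 CPM in young HSCs, most of it Tek and Pecam1, with 21.0 CPM of Sparc and 4.07 CPM of Cdh5 in young 1. Of these 13 markers, Lepr and Col3a1 had no count in any library, and Cxcl12, Col1a1, Pdgfra and Pdgfrb had at most 0.0876 CPM in any. Col1a2 reached 8.69 CPM (old 1) and Kdr 7.94 CPM (young 4). Across all genes, 29 of 11506 passed the edgeR quasi-likelihood test at an adjusted p under 0.05.

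Most imprinted genes were undetected, sporadic or low in HSCs of either age, though they lacked a count less often than the genes of the table at large. A count was present in all 7 libraries for 17 of the 41 members (41.5%, against 35.1% of all genes in the table), in some libraries for 15, and in none for 9 (22%, against 38.7%). Among the paternally expressed genes 7 of 23 were present in all libraries and 8 in none, and among the maternally expressed genes 10 of 18 were present in all and 1 in none. A library held counts for 7 to 10 of the paternally expressed genes and for 12 to 14 of the maternally expressed genes. Members that reached a mean of 10 CPM in either group numbered 6 of the 23 paternally expressed and 9 of the 18 maternally expressed genes. The share of all genes that reached this mean was not counted.

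**Figure D1:**
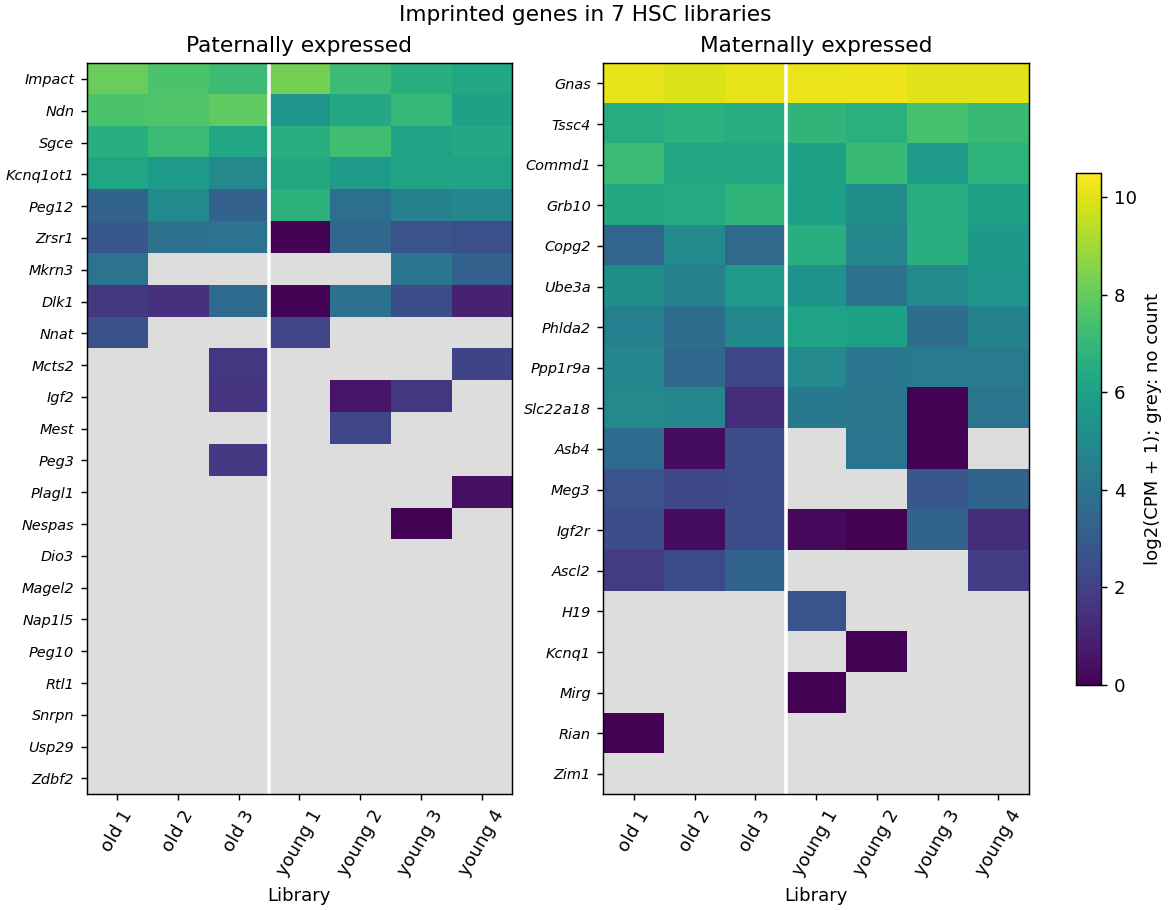
Level of each of the 41 imprinted genes, as log2(CPM + 1), in the 3 old and 4 young libraries, with genes in rows, libraries in columns and grey where a library had no count. Gnas is high in all 7 libraries, 9 genes are grey throughout, and many genes of low level appear in scattered libraries.

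None of the imprinted genes passed the threshold between old and young HSCs. With edgeR, 0 of the 22 tested members had an adjusted p under 0.05, where 0.252% of all tested genes did, and the smallest adjusted p was 0.191. The spread between libraries of a group that the fit estimated in common for all tested genes was 105.7% of the mean. With 3 old and 4 young libraries and such a spread, a gene that did not pass is not thereby shown to be unchanged. At an unadjusted p under 0.05 there were 2 members, Ndn and Copg2 (9.09%), where 9.12% of all tested genes had such a p. DESeq2 called 1 member, Ndn, at 3.75% of all genes, and limma-voom called 0, at 0.435%. Of the 22, 13 had a positive log2 fold change (59.1%, against 48.5% of all tested genes), and their median was 0.08, against -0.03 for all tested genes. Without young 1, 9 of 22 were positive (median -0.11), and without young 2, 9 of 20 (median -0.04), so the direction of their median rested on these libraries. For 1 member, Ndn (4.55%), every old library lay above every young one, as for 7.55% of all genes tested.

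**Figure D2:**
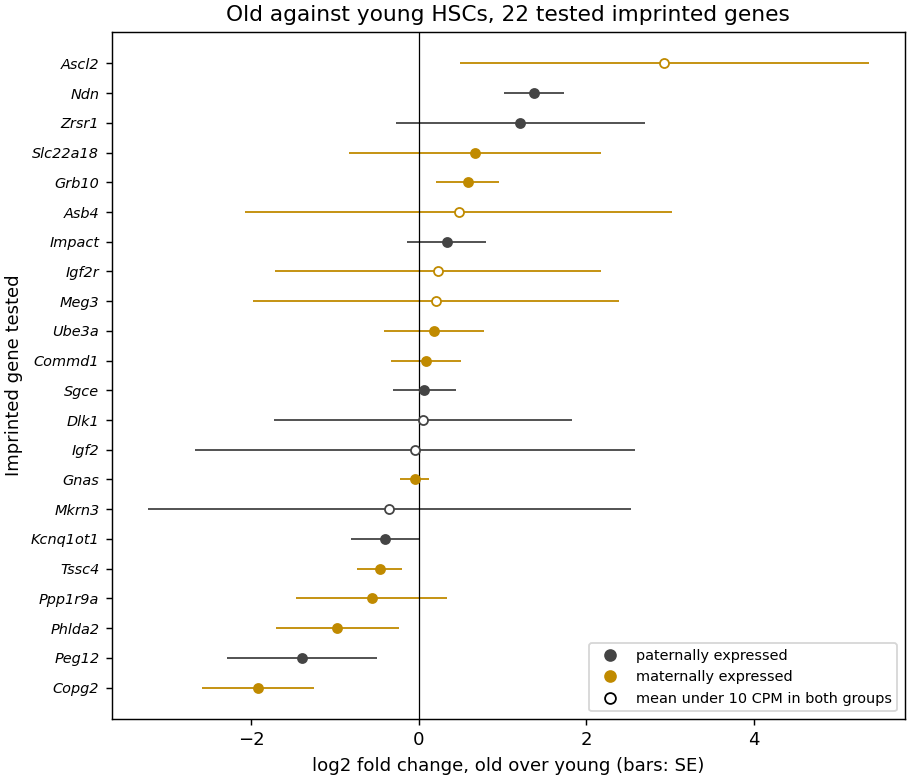
Log2 fold change of old over young HSCs with its SE (edgeR) for the 22 tested imprinted genes, ordered by size, with open symbols for genes under 10 CPM in both groups. Ndn at 1.38 and Copg2 at -1.92 lie farthest from 0 relative to their SE, and the genes of low level have SE of 1.78 to 2.88.

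Of the paternally expressed genes, 9 of 23 were tested, 0 passed in either direction, 5 had a positive log2 fold change and the median was 0.05. Without each library in turn their median lay between -0.31 (without young 1) and 0.42 (without old 2), and was also negative without young 4 (-0.16). Their summed level was 658, 612 and 535 CPM in old HSCs and 645, 476, 414 and 331 CPM in young HSCs. Young 1 lay within the old libraries in this sum and the other young libraries lay below them. Impact, Ndn and Sgce together made up most of it in every library.

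Ndn encodes necdin, a growth suppressor of the MAGE family that restrains the cell cycle. It had 181, 192 and 242 CPM in old HSCs and 45.2, 78.8, 128 and 63.4 CPM in young HSCs. Every old library lay above every young library, and young 3 came nearest to the old. The log2 fold change was 1.38 ± 0.36 (SE), 2.60-fold higher in old HSCs, with an adjusted p of 0.191 by edgeR, which did not pass. DESeq2 gave an adjusted p of 0.0277 with a log2 fold change of 1.36. Without each library in turn the log2 fold change stayed between 1.18 (without young 1) and 1.72 (without young 3), and the adjusted p did not fall below 0.129. The other MAGE gene of the cluster, Magel2, had no count in any library.

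Impact, which restrains the amino acid sensing kinase GCN2, had 273, 181 and 146 CPM in old HSCs and 316, 146, 97.4 and 76.4 CPM in young HSCs. The groups overlapped, with young 1 the highest of all 7 libraries and young 2 level with old 3. The log2 fold change was 0.33 ± 0.47 (adjusted p = 0.960, edgeR) with all libraries and 0.91 without young 1 (adjusted p = 0.498). Peg12, a member of the Frat family of GSK-3 binding proteins, had 9.22, 30.4 and 8.80 CPM in old HSCs and 104.9, 13.2, 23.4 and 28.2 CPM in young HSCs. The log2 fold change of Peg12 was -1.39 ± 0.89 (adjusted p = 0.777) and -0.42 without young 1, so its size rested on that library.

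Sgce, Kcnq1ot1 and Zrsr1 were the remaining paternally expressed genes above 10 CPM. Sgce, the epsilon subunit of the sarcoglycan membrane complex, had 94.0, 140.8 and 74.6 CPM in old HSCs and 93.7, 154, 66.4 and 79.4 CPM in young HSCs, with ranges that nearly coincided (log2 fold change 0.07 ± 0.37, adjusted p = 0.989, edgeR). Kcnq1ot1, a long non-coding RNA that silences genes of its cluster on the paternal chromosome, had 72.6, 51.2 and 29.7 CPM in old HSCs and 81.4, 55.1, 69.5 and 65.1 CPM in young HSCs. Old 2 and old 3 lay below every young library, but old 1 did not (log2 fold change -0.41 ± 0.41, adjusted p = 0.915). The gene is 93.1 kb long in the GENCODE annotation, so its level per kb of exon was only 0.549 CPM in old HSCs and 0.728 CPM in young HSCs. Zrsr1, a splicing factor related to U2AF, had 6.31, 14.7 and 15.2 CPM in old HSCs and 0.0438, 10.3, 5.53 and 4.98 CPM in young HSCs, where the value of young 1 is a single count (log2 fold change 1.21 ± 1.49, adjusted p = 0.944).

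Igf2, Dlk1 and Mkrn3 were tested but stayed under 10 CPM on average. Igf2, the fetal growth factor, had counts in old 3 (1.998 CPM), young 2 (0.502 CPM) and young 3 (2.24 CPM) and none in the other libraries. Dlk1, a membrane protein of the Notch ligand type, had 2.23, 1.73 and 11.7 CPM in old HSCs and 0.0438, 14.3, 4.80 and 0.975 CPM in young HSCs, a spread within each group far larger than the difference of the means (log2 fold change 0.05 ± 1.78, adjusted p = 0.997, edgeR). Mkrn3, a RING finger ubiquitin ligase, was present in old 1 (14.8 CPM), young 3 (16.6 CPM) and young 4 (8.64 CPM) and had no count in the other 4 libraries.

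The other paternally expressed genes were at or near 0. Mest, Peg3, Plagl1, Nnat, Mcts2 and Nespas had counts in 1 or 2 libraries each, with a highest level of 5.14 CPM (Nnat in old 1), and were not tested. Dio3, Rtl1, Magel2, Snrpn, Usp29, Peg10, Nap1l5 and Zdbf2 had no count in any library. Snurf, which shares exons and a start region with Snrpn, also had no count in any library. Whether reads that fit both genes were left uncounted was not tested, so the value of Snrpn is that of the table and not evidence that the gene was silent.

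**Figure D3:**
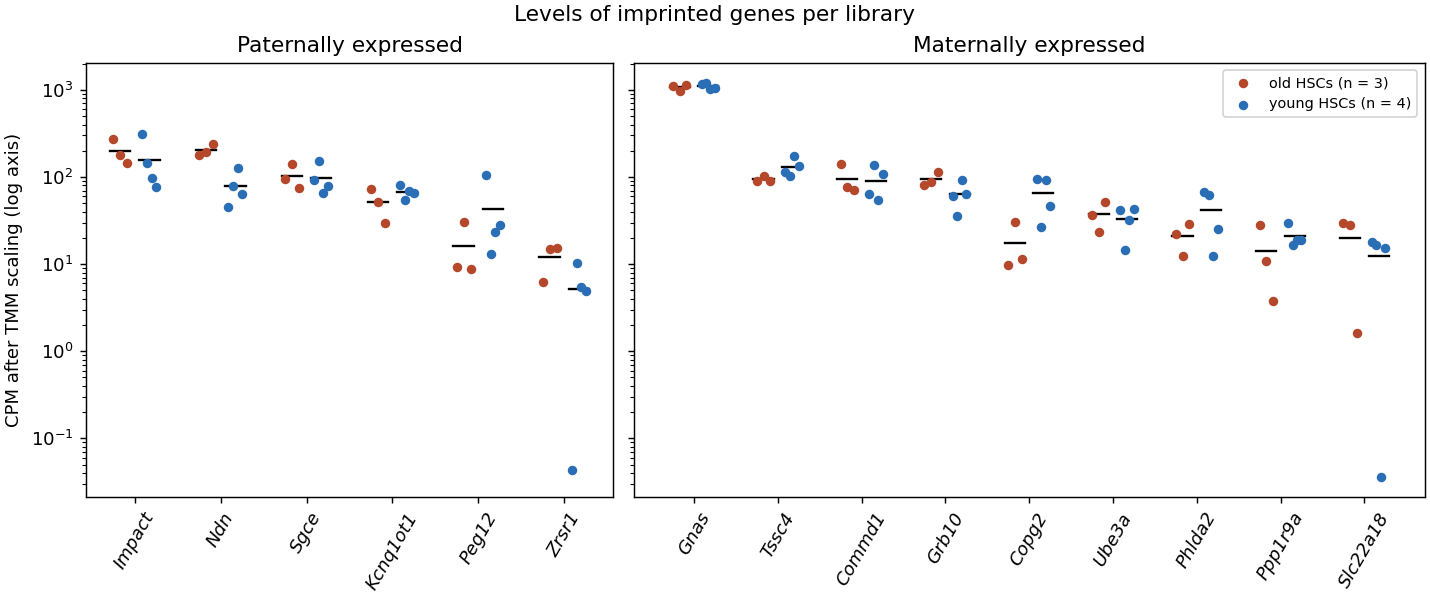
CPM on a log axis of the 15 imprinted genes that averaged 10 CPM or more in either group, each point a library of old (left, n = 3) or young (right, n = 4) HSCs and each line a mean. Ndn is the gene whose old and young points are fully apart, Gnas has closely spaced points in both groups, and Zrsr1 in young 1 and Slc22a18 in young 3 lie at 0.0438 and 0.0361 CPM.

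Of the maternally expressed genes, 13 of 18 were tested, 0 passed in either direction, 8 had a positive log2 fold change and the median was 0.18. Without each library in turn their median lay between -0.18 (without old 1) and 0.28 (without old 2). It was also negative without old 3 (-0.09), young 1 (-0.05) and young 2 (-0.12), and these genes are described together below. Their summed level was 1580.3, 1362 and 1539.9 CPM in old HSCs and 1682, 1634, 1528 and 1515 CPM in young HSCs. Gnas supplied most of it, and without Gnas the sums were 465, 382 and 396 CPM in old HSCs and 499, 426, 492 and 469.7 CPM in young HSCs. These ranges overlapped.

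Gnas, which encodes the stimulatory G protein alpha subunit, was the most abundant of the members and, with Tssc4 in old HSCs, among the most even. It had 1115, 980.0 and 1144 CPM in old HSCs and 1183, 1208, 1037 and 1045 CPM in young HSCs. Its SD was 8.12% of the mean in old HSCs and 8.06% in young HSCs, and the log2 fold change was -0.05 ± 0.18 (adjusted p = 0.986, edgeR). The Gnas cluster makes transcripts from both parental alleles and the table gives them as 1 gene, so its level is no measure of maternal expression. Nespas, the antisense RNA of the cluster, had 1 count, in young 3.

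Copg2 encodes the gamma-2 subunit of the COPI coat of Golgi vesicles. It had 9.86, 30.8 and 11.4 CPM in old HSCs and 95.6, 26.6, 93.6 and 46.9 CPM in young HSCs. Old 1 and old 3 lay below every young library, and old 2 lay just above young 2. The log2 fold change was -1.92 ± 0.67 (adjusted p = 0.356, edgeR), 3.78-fold lower in old HSCs, and -2.64 without old 2, still with an adjusted p of 0.292. Copg2 shares 912 exon bases, 17.8% of its exons, with Mest on the other strand, and Mest had 82 counts, all in young 2. The summed erythroid markers lay apart between the groups in the same direction. They held 11.1 to 49.4 CPM in old HSCs and 71.6 to 109.9 CPM in young HSCs, mostly of Klf1 and Epor. Klf1 (24.9 CPM in old 1, 14.5 CPM in young 3) and Epor (43.4 CPM in old 3, 40.0 CPM in young 4) each overlapped. Car1 had a log2 fold change of 0.11 ± 2.75, and Hbb-b1, Hba-a1 and Hba-a2 had no count. The sums of megakaryocyte, neutrophil and monocyte, B cell, and T and NK cell markers each overlapped between the groups. Of 4 neutrophil and monocyte markers tested, 2 had a positive log2 fold change and 1 passed (0.252% of all tested genes did). It was Prtn3, with 645 ± 116 CPM in old HSCs and 151 ± 43.8 CPM in young HSCs (adjusted p = 0.0242, edgeR). Of 5 megakaryocyte markers tested, 1 had a positive log2 fold change and 0 passed. Itga2b averaged 7.19 ± 3.28 CPM and 47.8 ± 28.4 CPM (adjusted p = 0.290). The part of these markers in the value of Copg2 was not tested.

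**Figure D4:**
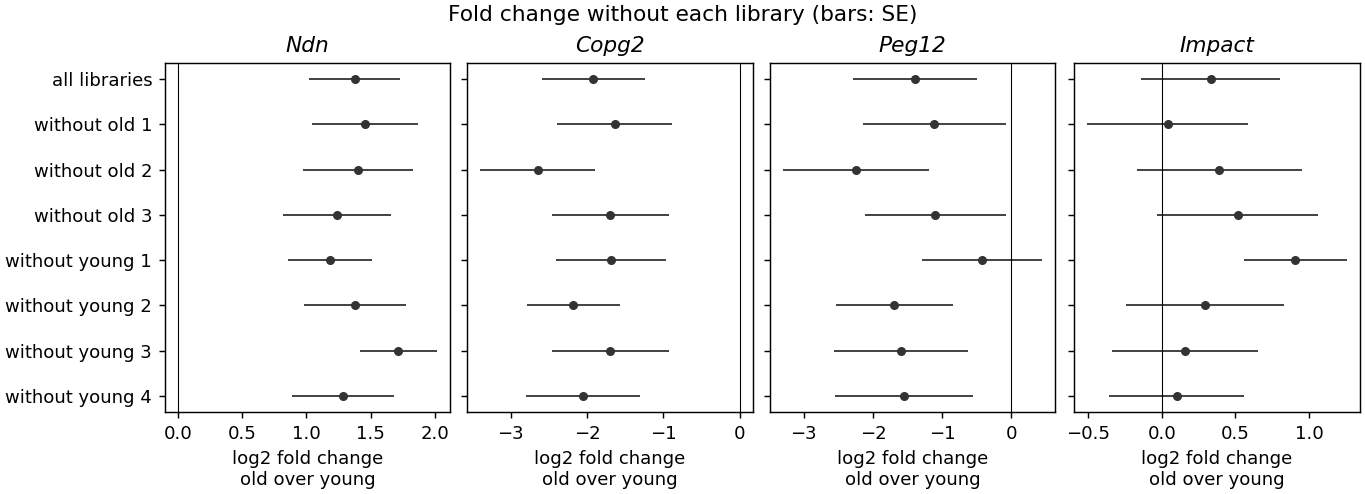
Log2 fold change of old over young HSCs with its SE (edgeR) for Ndn, Copg2, Peg12 and Impact with all libraries and without each library in turn. Ndn stays between 1.18 and 1.72 and Copg2 between -2.64 and -1.64, while Peg12 and Impact move most without young 1, to -0.42 and 0.91.

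Among maternally expressed genes that act on growth signals, Grb10 and Igf2r were of different abundance. Grb10, an adaptor that inhibits the insulin and IGF1 receptors, had 81.9, 88.1 and 114 CPM in old HSCs and 61.4, 35.6, 93.2 and 63.2 CPM in young HSCs. Young 3 lay within the old libraries and the other young libraries below them (log2 fold change 0.58 ± 0.38, adjusted p = 0.778, edgeR). Igf2r, the mannose 6-phosphate receptor that removes IGF2, had 4.76, 0.279 and 4.53 CPM in old HSCs and 0.175, 0.0457, 9.07 and 1.60 CPM in young HSCs, with groups that overlapped throughout (log2 fold change 0.23 ± 1.94, adjusted p = 0.992).

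In the Kcnq1 cluster, the maternally expressed genes gave no common direction. Tssc4, a factor of the splicing machinery in human cells, had 89.4, 103 and 91.1 CPM in old HSCs and 115, 101.9, 172 and 134 CPM in young HSCs, with old 2 just above young 2 (log2 fold change -0.47 ± 0.27, adjusted p = 0.717, edgeR). Phlda2, which restrains placental growth in the mouse, had 22.2, 12.4 and 28.8 CPM in old HSCs and 67.1, 61.6, 12.3 and 25.1 CPM in young HSCs. Its high values were those of young 1 and young 2, while young 4 lay within the old range and young 3 just below it (log2 fold change -0.97 ± 0.74, adjusted p = 0.847). Slc22a18, a transporter-like membrane protein, had 29.9, 28.4 and 1.61 CPM in old HSCs and 17.96, 16.8, 0.0361 and 15.5 CPM in young HSCs, with old 3 and young 3 far below the rest of their groups (log2 fold change 0.67 ± 1.51, adjusted p = 0.978). Ascl2, a basic helix-loop-helix factor, had 2.64, 4.15 and 9.26 CPM in old HSCs and 2.79 CPM in young 4, with no count in the other young libraries (log2 fold change 2.93 ± 2.44, adjusted p = 0.883). Kcnq1 itself, a potassium channel, had 1 count, in young 2, while Kcnq1ot1, which is transcribed from within it on the other strand, had counts in all 7 libraries.

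Commd1 and Ube3a, known to be imprinted mainly in the brain, and Ppp1r9a, known to be imprinted mainly in extraembryonic tissue, were measured in all 7 libraries. Commd1, a protein of endosomal sorting, had 142, 75.9 and 70.5 CPM in old HSCs and 64.2, 136, 54.0 and 108.9 CPM in young HSCs (fold change on the log2 scale 0.08 ± 0.42, adjusted p = 0.988, edgeR). Zrsr1 lies inside Commd1 on the other strand and shares 412 exon bases with it, which counts without strand cannot separate. Ube3a, a ubiquitin ligase, had 36.5, 23.6 and 51.4 CPM in old HSCs and 41.6, 14.7, 31.7 and 43.1 CPM in young HSCs (fold change on the log2 scale 0.18 ± 0.60, adjusted p = 0.986). Ppp1r9a, the actin-binding protein neurabin-1, had 28.4, 10.8 and 3.804 CPM in old HSCs and 30.0, 16.5, 19.1 and 19.1 CPM in young HSCs (fold change on the log2 scale -0.56 ± 0.90, adjusted p = 0.970). The groups overlapped for all 3 genes.

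The long non-coding RNAs on the maternal chromosome were scarce. Meg3, known in the mouse for its part in keeping fetal liver HSCs, had 5.48, 3.90 and 4.15 CPM in old HSCs and 6.07 and 9.54 CPM in young 3 and young 4, with no count in young 1 and young 2 (log2 fold change 0.21 ± 2.18, adjusted p = 0.994, edgeR). The old libraries thus lay within the range of the young. H19 had 130 counts (5.69 CPM) in young 1 and none in the other 6 libraries, so it was not tested. Young 1 was also the one library with a count of Cdh5, a marker of endothelium, and held all but 0.0696 CPM (young 4) of Sparc, a matrix protein of bone and stroma. Their part in the value of H19 was not tested. Rian had 1 count, in old 1, and Mirg 1 count, in young 1. Asb4, a SOCS box protein, ranged from 0.279 to 11.9 CPM in old HSCs and from 0 to 16.03 CPM in young HSCs, and Zim1, a zinc finger gene, had no count in any library.

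Set per kb of exon, which allows levels of different genes to be compared, Gnas came first with a mean of 96.5 CPM per kb in old HSCs and 99.97 CPM per kb in young HSCs. Ndn came next in old HSCs with 55.5 CPM per kb, against 21.4 in young HSCs, followed by Tssc4 with 51.3 in old and 70.9 in young HSCs and Impact with 39.0 in old and 31.0 in young HSCs. Phlda2 had 18.9 CPM per kb in old HSCs and 37.1 in young HSCs. The order of neighbouring genes was not tested. Exon lengths came from GENCODE M21, which is not the annotation behind the counts.

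In several clusters, some members had counts in all 7 libraries and others in none. In the Snrpn-Ndn cluster, Ndn, Peg12 and Ube3a had counts in all 7 libraries, Mkrn3 in 3, and Magel2 and Snrpn in none. In the Dlk1-Dio3 cluster only Dlk1 had a count in all 7 libraries. In the Peg10 cluster, Sgce and Ppp1r9a did and Peg10, which starts beside Sgce and is paternally expressed like it, had no count. Of the Peg3 cluster, Peg3 had 60 counts, all in old 3, while Usp29 and Zim1 had none.

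Genes listed for a part in setting, keeping or erasing imprints were mostly at lower levels in old HSCs, and none passed. The list takes in Tet1, Tet2 and Tet3, which act in removing DNA methylation. Their log2 fold changes were -0.87 ± 1.47, -1.29 ± 0.91 and -2.26 ± 1.84 (adjusted p = 0.970, 0.818 and 0.878, edgeR). Of 27 listed, 24 were tested with edgeR, 0 were called higher or lower (0.252% of all tested genes were), 3 had a positive log2 fold change (48.5% of all tested genes did), and the median was -0.86, against -0.03 for all tested genes. Without each library in turn, 1 to 4 were positive and the median lay between -1.12 and -0.73. At an unadjusted p under 0.05 there were 4, Trim28, Hells, Uhrf1 and Ezh2, where 9.12% of all tested genes had such a p. Trim28, the corepressor that ZFP57 recruits, averaged 105 ± 14.0 CPM over old libraries and 235 ± 104 CPM over young libraries (fold change on the log2 scale -1.16 ± 0.42, adjusted p = 0.373). Young 2, at 83.1 CPM, lay below all old libraries. Hells, a chromatin remodeller needed for DNA methylation, averaged 33.7 ± 39.4 CPM over old libraries and 155 ± 30.9 CPM over young libraries (adjusted p = 0.431), and Uhrf1, which brings the maintenance methyltransferase to replicated DNA, 4.07 ± 1.95 CPM over old libraries and 28.6 ± 24.3 CPM over young libraries (adjusted p = 0.467). Ezh2, the Polycomb methyltransferase, averaged 58.2 ± 30.3 CPM over old libraries and 119.6 ± 36.1 CPM over young libraries (adjusted p = 0.533). Hells, Uhrf1 and Ezh2 are known to be more abundant in dividing cells, and the part of cell division in their values was not tested. Dnmt3l, Ctcfl and Dppa3 had no count in any library.

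Of 20 genes of the IGF axis, which takes in the receptors and partners of IGF2, 9 were tested, 1 rose (0.235% of all tested genes did) and 0 fell (0.0174%). The gene that rose was Pik3r1, the p85 regulatory subunit of PI3 kinase, with 277, 336 and 374 CPM in old HSCs and 133, 107, 133 and 104.9 CPM in young HSCs (fold change on the log2 scale 1.46 ± 0.22, adjusted p = 0.0457, edgeR). Every old library lay above every young library, but leaving out any library ended the call, with an adjusted p of 0.0536 (without young 2) to 0.253 (without old 3). The call was also lost with library size alone (adjusted p = 0.0630) and with the replicate block (adjusted p = 0.489), and held in the 7 other settings with all libraries, among them DESeq2 and limma-voom. The list had 3 positive log2 fold changes and a median of -0.27, which was 0.02 without old 1. The number of its genes past the threshold was 0 without each library in turn. Igfbp7, which binds IGFs, averaged 12.1 ± 4.93 CPM over old libraries and 1.01 ± 2.02 CPM over young libraries (adjusted p = 0.807), and the growth factor Igf1 6.97 ± 6.06 CPM over old libraries and 16.3 ± 6.29 CPM over young libraries (adjusted p = 0.950).

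A further 35 genes reported as imprinted in some mouse tissue gave the same count of calls as the members. Of 22 tested with edgeR, 0 passed in either direction (0.252% of all tested genes did) and 0 had an unadjusted p under 0.05 (9.12%), 11 had a positive log2 fold change (48.5% of all tested genes did) and the median was 0.10, which lay between -0.10 and 0.19 without each library in turn. H13, a signal peptide peptidase whose intron holds Mcts2, averaged 376 ± 105 CPM over old libraries and 248 ± 62.2 CPM over young libraries (fold change on the log2 scale 0.60 ± 0.28, adjusted p = 0.578). Inpp5f, a phosphoinositide phosphatase, averaged 29.8 ± 20.2 CPM over old libraries and 57.5 ± 10.9 CPM over young libraries (fold change on the log2 scale -0.95 ± 0.55, adjusted p = 0.718). Cd81, a tetraspanin of the Kcnq1 cluster, averaged 2664 ± 439 CPM over old libraries and 2148 ± 542 CPM over young libraries (adjusted p = 0.858).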

How the data were processed

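Bulk RNA of 7 libraries, 3 of old and 4 of young HSCs, was analysed. Per the labels' protocols, RNA of the sorted cells was turned into cDNA with Smart-seq+ and into libraries with Nextera XT, a kit that keeps no strand. The submitters' processing notes name Trimmomatic, FastQC, STAR, featureCounts and the build mm9. The annotation, the strand setting and the handling of reads that match several genes are not stated there. The values the authors deposited are unscaled read counts, since they are whole numbers with unequal totals.

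The counts were tested with edgeR 4.0.16 under R 4.3.3 (filterByExpr with a minimum count of 10 and a minimum total of 15, TMM, glmQLFit and glmQLFTest, 2-sided, group as the only term), with Benjamini-Hochberg adjustment over 11506 genes and a threshold of 0.05. SE is the absolute log2 fold change over the square root of F. Alternatives used limma 3.58.1, DESeq2 1.42.0, other scalings and filters, thinning, a replicate block and leaving out each library. The procedure was tested on simulated counts. Members and lists were chosen with earlier results of these data known. Values per library are given for members with a mean of at least 10 CPM in either group. For the other lists, markers aside, up to 4 genes with the smallest p are named, and Tet1, Tet2 and Tet3 as well. Members under that mean, and genes with no count, are named to account for them. Overlaps and exon lengths come from GENCODE M21 (GRCm38) by symbol, and sequences from RefSeq (GRCm38.p6). Because that build is not mm9, positions are given for these sequences alone.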

Additional observations from a re-analysis of the deposited data

Results flagged for a closer look

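Peg12 in young 1, at 105 CPM, lay far above the other young libraries, which held 13.2, 23.4 and 28.2 CPM. Slc22a18 in young 3, at 0.0361 CPM or 1 count, lay far below the other young libraries, which held 15.5 to 17.96 CPM. In both, the gap to the nearest library was over the 95% critical share of the range for 4 samples (Dixon). Of the 15 genes looked at, 2 were singled out in this way, where chance singles out about 1 in 20.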

How the results depend on the processing

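With edgeR, 29 genes passed in all, against 431 with DESeq2, 50 with limma-voom, 16 with library size alone, 130 when only genes averaging 50 CPM or more were tested and 0 with the replicate block (694 at an unadjusted p under 0.05), and 2 to 18 without each library in turn. The cause was not tested, beyond the 4508 genes that the 50 CPM filter left. Median-ratio size factors, no filter, robust dispersions and thinning stayed within 1.5 times of 29. The number of imprinted genes past the threshold was 0 in all of these except DESeq2, with 1 (Ndn), and was also 0 without each library. With the filter of 50 CPM, 8 members were tested, and with none, 32. The labels do not say that the numbers pair the libraries. Deviations of libraries with the same number correlated at -0.07, -0.01 and 0.03, and those with different numbers at -0.07 to 0.08. With so few libraries, these values cannot decide whether any share a preparation. With the block, Ndn had a log2 fold change of 1.40 (adjusted p = 0.660) and Copg2 -2.14 (adjusted p = 0.846). In that fit young 4 is alone in its block and adds nothing to the contrast, and the block terms leave less to measure the spread by.

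Of the 22 tested members, 13 kept their direction throughout, Ndn, Copg2, Peg12, Impact and Gnas among them. Without a library, 9 changed direction in at least 1 fit, with log2 fold changes from -0.72 to 1.03 for Asb4, -0.31 to 0.34 for Commd1, -1.34 to 1.42 for Dlk1, -7.20 to 0.53 for Igf2, -0.18 to 2.38 for Igf2r, -0.21 to 1.15 for Meg3, -10.39 to 0.23 for Mkrn3, -0.23 to 0.37 for Sgce and -0.12 to 0.41 for Ube3a. Commd1 was also -8.81e-04 with library size alone. The cause was not tested. The 7 tested members under 10 CPM in both groups had SE of 1.78 to 2.88 on the log2 scale, and 5 of them were at 0 in 1 or more libraries. A gene with no count in a library may have had up to 0.0929 to 0.137 CPM, the worth of 3 counts.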
